A study of Mus musculus with 4 samples.

Results

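Genes of the NRF2 pathway, of glutathione and thioredoxin metabolism and of peroxide removal were followed across sorted cells of mouse 4T1 tumours. The set was chosen by gene name: 29 genes listed by name and the 17 genes on the array named as glutathione S-transferases of the alpha, mu, pi, theta or zeta class, which made 46 genes. Of these, 42 had a probe that the scanner software marked as well above background on 2 or more arrays, and these are called measured, out of 23520 measured features in all. On every one of the 4 arrays, 39 of the 42 passed that mark. The alpha and mu class transferases Gsta3 and Gstm7 had 0 arrays well above background, and Gsta2 and the endoplasmic reticulum peroxidase gene Gpx7 had 1 array each.

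The cells came from tumours formed by implanted 4T1, a mammary carcinoma line, in untreated BALB/C mice. They were sorted with ALDEFLUOR, a substrate that aldehyde dehydrogenase (ALDH) turns into a fluorescent product, into fractions of high and low activity. The 4 groups were ALDH-high cells at zeitgeber time ZT12, ALDH-low cells at ZT12, ALDH-high cells at ZT0 and ALDH-low cells at ZT0, where ZT0 is lights on, with 1 one-colour array per group. There were no replicates. The number of mice behind a fraction and their age are not given in the sources used here. Precision is limited by having 4 arrays.

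All levels below are log2 processed signals minus the 75th percentile of the array, so that 0 is that percentile. The percentile itself was 156.3 signal units on the ZT12 ALDH-high array, 458.8 on ZT12 ALDH-low, 300.6 on ZT0 ALDH-high and 213.6 on ZT0 ALDH-low. Both ZT12 arrays lay on one slide and both ZT0 arrays on another, so slide and time of day cannot be told apart. The ZT12 ALDH-high and ZT0 ALDH-low arrays lay at position 1_1 of their slides, and the ZT12 ALDH-low and ZT0 ALDH-high arrays at position 1_2. Spike-in controls had a slope of 0.789 on ZT12 ALDH-high, 0.944 on ZT12 ALDH-low, 0.956 on ZT0 ALDH-high and 0.873 on ZT0 ALDH-low. Over all features, the arrays that shared a position were closest, although they share neither time nor ALDH arm. Their median absolute difference was 0.26 log2 units at position 1_1 and 0.46 at position 1_2, and it was above 1 and up to 1.07 for the other 4 pairs of arrays. An ALDH difference that turns round between ZT12 and ZT0, the array position and the pairing of labels with arrays cannot be told apart here, and the labels were used as deposited. The epithelial keratin genes Krt8 and Krt18 were detected in each group, and so were blood cell genes such as S100a9 of neutrophils and Hba-a1 of red cells. In such bulk samples, fewer cells of a type and less RNA per cell cannot be told apart.

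NRF2, encoded by Nfe2l2, is a transcription factor that KEAP1 holds in the cytoplasm and passes to the proteasome. Oxidants and electrophiles modify KEAP1, and NRF2 then enters the nucleus, pairs with small MAF proteins and binds antioxidant response elements near genes that make glutathione, reduce thioredoxin and supply NADPH. Peroxiredoxins, glutathione peroxidases and catalase remove peroxides, and glutathione S-transferases join glutathione to reactive compounds. In tumours the pathway is known for protecting cells from oxidants and drugs, and ALDH enzymes are themselves used as a mark of tumour-initiating cells.

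The core of the antioxidant response element, TGACNNNGC or on the other strand GCNNNGTCA, was searched in RefSeq promoters of build GRCm38.p6, which run from 250 bases before to 50 bases after each start. It was present in 12.4% of 32851 promoters and in 16.1% of 12650 measured genes with a promoter. It was found in 10 of the 36 measured members with a promoter. Gclm and Prdx1 are shown over the 250 bases before their starts, with the match in capitals, since both hold it at nearly the same distance from the start (first base at -134 in Gclm and -133 in Prdx1) and their levels run opposite ways across the arrays. The Gclm stretch is chr3:122245307-122245556 and the Prdx1 stretch chr4:116685349-116685598, both on the plus strand. The match in Prdx1 also contains the AP-1 motif TGACTCA on its other strand, which 5.2% of promoters hold. The Prdx1 stretch holds TGACTCA near its beginning as well, outside the match and not in capitals.
Gclm: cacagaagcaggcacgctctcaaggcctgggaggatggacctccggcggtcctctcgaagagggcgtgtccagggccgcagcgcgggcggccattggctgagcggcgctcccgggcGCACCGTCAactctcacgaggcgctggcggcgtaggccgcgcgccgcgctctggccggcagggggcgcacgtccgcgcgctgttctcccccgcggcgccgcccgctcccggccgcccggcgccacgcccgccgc
Prdx1: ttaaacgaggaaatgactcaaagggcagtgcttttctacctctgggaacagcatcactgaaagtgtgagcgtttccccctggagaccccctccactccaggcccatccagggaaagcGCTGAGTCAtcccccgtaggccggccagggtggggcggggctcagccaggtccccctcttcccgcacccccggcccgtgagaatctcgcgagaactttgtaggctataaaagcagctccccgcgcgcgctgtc
The matches of the other 8 members are given as 29 bases of the gene's own strand, for Ggt1 at 1 of its 4 starts. On the plus strand lie Srxn1 at chr2:152105542-152105570, Gstm5 at chr3:107895802-107895830, Ggt1 at chr10:75568616-75568644, Txnrd1 at chr10:82859104-82859132 and Sod1 at chr16:90220696-90220724. On the minus strand lie Nfe2l2 at chr2:75704885-75704913, Pgd at chr4:149166061-149166089 and G6pdx at chrX:74428919-74428947. The matches shown for Srxn1 and Pgd come after the start and the others before it. Ggt1 has further matches at other starts, with the first base at 42 after 1 start and at -83 from another.
Nfe2l2: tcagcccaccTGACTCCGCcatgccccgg
Srxn1: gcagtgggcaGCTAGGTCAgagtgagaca
Gstm5: caccgcccacTGACCACGCggagggcggg
Pgd: atttcagagcTGACATTGCactgatcgga
Ggt1: gaagggaggaGCTGGGTCActgctgggga
Txnrd1: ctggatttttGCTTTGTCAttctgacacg
Sod1: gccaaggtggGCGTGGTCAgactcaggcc
G6pdx: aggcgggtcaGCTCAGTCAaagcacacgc
A match describes these letters alone, and whether NRF2 binds there was not measured.

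The members fell into a few patterns, which the heat map of all 42 shows by role. Nfe2l2 itself, 4 of the 6 genes of cystine import and glutathione synthesis and turnover, the thioredoxin genes and both pentose phosphate genes were highest on the ZT12 ALDH-low and ZT0 ALDH-high arrays. Prdx1 to Prdx4, Cat and most transferases were highest on the ZT12 ALDH-high and ZT0 ALDH-low arrays. This order holds for the scaling used: with arrays scaled by their median, the ZT12 difference of Prdx2 to Prdx4, Cat and 7 transferases changed sign. That of Prdx1 nearly vanished. Another set, with Keap1, Gclc, Gss, Gpx4 and Sod2, differed by at most 0.42 log2 units between any 2 arrays.

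**Figure D1:**
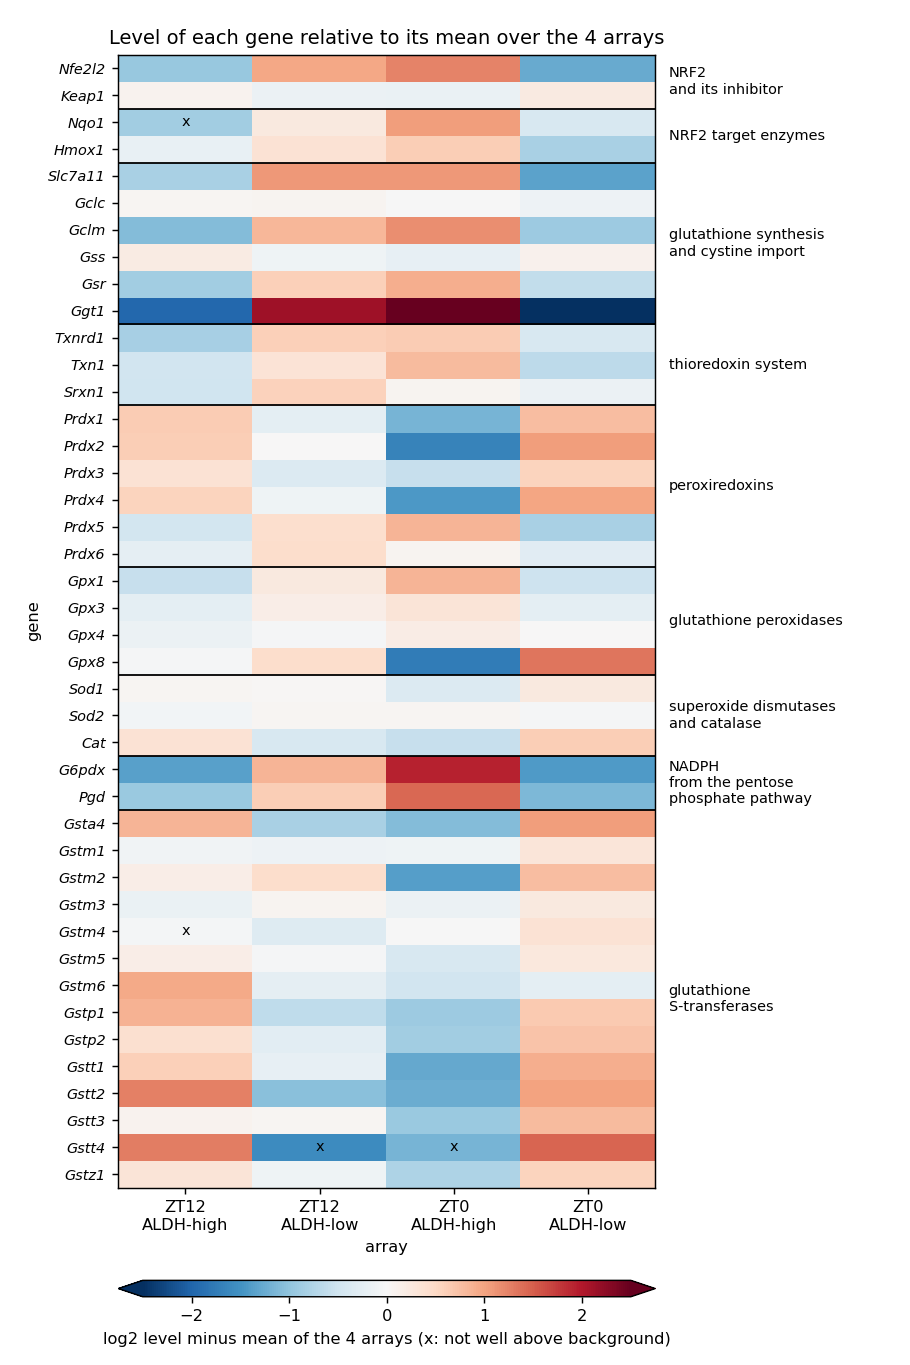
Heat map of the 42 measured members (rows, by role) on the 4 arrays (columns), as the log2 level minus the gene's mean over the arrays, red for higher and blue for lower, with an x where the probe was not well above background. Ggt1 has the widest range, 5.30 log2 units, and Sod2 the narrowest, 0.12.

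Nfe2l2 had a log2 level of 2.83 on the ZT12 ALDH-high array and 4.75 on ZT12 ALDH-low, against 5.03 on ZT0 ALDH-high and 2.53 on ZT0 ALDH-low. It was thus lower in ALDH-high than in ALDH-low cells at ZT12, by -1.93, and higher at ZT0, by 2.50, and its second probe had the same signs. The probe used lies at chr2:75513771-75513830 of mm9, on the minus strand. Keap1, the adaptor that sends NRF2 to degradation, was nearly level, with 1.84 on ZT12 ALDH-high, 1.60 on ZT12 ALDH-low, 1.58 on ZT0 ALDH-high and 1.98 on ZT0 ALDH-low. Its ALDH differences of 0.25 at ZT12 and -0.40 at ZT0 changed sign when arrays were scaled by their median. Among the classical target enzymes, the haem oxygenase gene Hmox1 had 6.07 on ZT12 ALDH-high, 6.62 on ZT12 ALDH-low, 6.88 on ZT0 ALDH-high and 5.45 on ZT0 ALDH-low. With this probe, the ZT0 difference of 1.43 was past 2-fold and the ZT12 difference of -0.55 was not. A dimmer Hmox1 probe, detected in each group, had -1.55 at ZT12 and 2.45 at ZT0, past 2-fold at both times. The quinone reductase gene Nqo1 was dim throughout, between -4.19 and -2.28, and on ZT12 ALDH-high it was not well above background. Its level at ZT12 was therefore at least 1.25-fold lower in ALDH-high cells, and its ZT0 difference was 1.44.

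**Figure D2:**
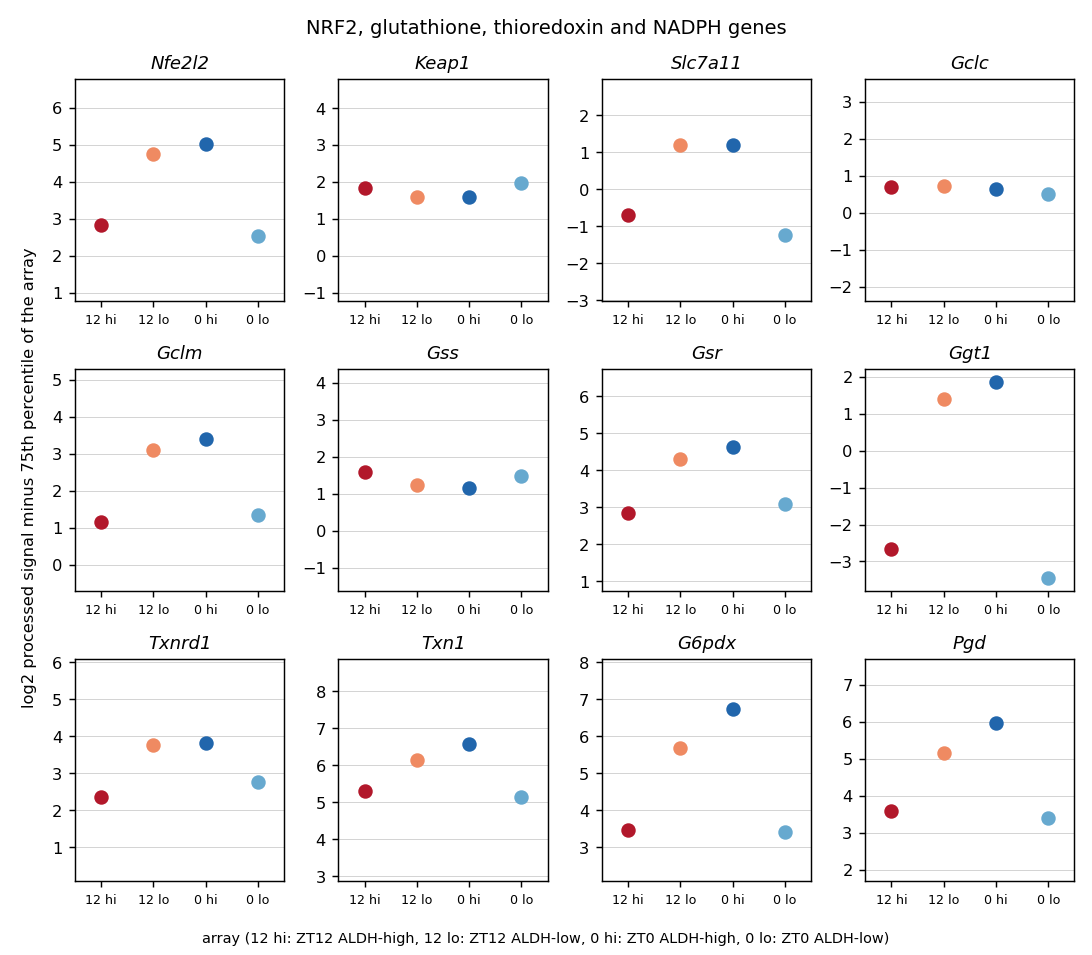
Log2 level relative to the 75th percentile of the array for 12 members, 1 point per array, each panel spanning 6 log2 units. The ZT12 ALDH-low and ZT0 ALDH-high points lie above the other pair in every panel except those of Keap1, Gclc and Gss.

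Glutathione is made from glutamate, cysteine and glycine, and cystine uptake and the first ligation set its rate. Slc7a11, the cystine transporter subunit xCT, had -0.71 on ZT12 ALDH-high and 1.18 on ZT12 ALDH-low, against 1.19 on ZT0 ALDH-high and -1.24 on ZT0 ALDH-low. The ALDH difference was -1.89 at ZT12 and 2.43 at ZT0, and 3 measured probes had the same signs. Gclm, the modifier subunit of glutamate-cysteine ligase, had 1.16 on ZT12 ALDH-high, 3.09 on ZT12 ALDH-low, 3.41 on ZT0 ALDH-high and 1.35 on ZT0 ALDH-low. Its differences of -1.93 and 2.06 contrast with those of Gclc, the catalytic subunit of the same enzyme. Gclc had 0.69 on ZT12 ALDH-high, 0.71 on ZT12 ALDH-low, 0.63 on ZT0 ALDH-high and 0.51 on ZT0 ALDH-low, and both its signs changed under quantile normalization. The subunits were measured by different probes, so their levels cannot be set against each other. Gss, which adds glycine in the last step, had 1.58 on ZT12 ALDH-high, 1.25 on ZT12 ALDH-low, 1.16 on ZT0 ALDH-high and 1.48 on ZT0 ALDH-low, and its signs changed under median scaling. Differences past 2-fold at both times were thus seen in Slc7a11 and Gclm, and in neither Gclc nor Gss.

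Gsr, which reduces oxidised glutathione with NADPH, had 2.84 on ZT12 ALDH-high, 4.30 on ZT12 ALDH-low, 4.62 on ZT0 ALDH-high and 3.08 on ZT0 ALDH-low. Its ALDH differences were -1.46 at ZT12 and 1.53 at ZT0. Both came to under 2-fold with normexp and quantile normalization, at -0.97 and 0.89. Ggt1, the surface enzyme that begins the breakdown of glutathione, had the widest range of all members. It stood at -2.67 on ZT12 ALDH-high and 1.41 on ZT12 ALDH-low, against 1.85 on ZT0 ALDH-high and -3.45 on ZT0 ALDH-low. These make differences of -4.08, or 16.9-fold lower in ALDH-high cells, at ZT12 and 5.30, or 39.3-fold higher, at ZT0. The Ggt1 probe spans 236 bases of the genome, chr10:75048435-75048670 of mm9. With normexp background correction and quantile normalization, its ZT0 difference was 3.42.

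NADPH for these reductions comes largely from the pentose phosphate pathway. G6pdx, its first and rate-setting enzyme, had 3.46 on ZT12 ALDH-high and 5.68 on ZT12 ALDH-low, against 6.75 on ZT0 ALDH-high and 3.41 on ZT0 ALDH-low. The ALDH difference was -2.22 at ZT12, a 4.65-fold lower level, and 3.34 at ZT0, a 10.1-fold higher level. Pgd, the next NADPH-making step, had 3.59 on ZT12 ALDH-high, 5.15 on ZT12 ALDH-low, 5.97 on ZT0 ALDH-high and 3.40 on ZT0 ALDH-low. Both genes were higher on both position 1_2 arrays than on either 1_1 array.

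Thioredoxin passes electrons to peroxiredoxins and is kept reduced by thioredoxin reductase. Txnrd1, the cytosolic reductase, had 2.34 on ZT12 ALDH-high, 3.76 on ZT12 ALDH-low, 3.81 on ZT0 ALDH-high and 2.76 on ZT0 ALDH-low. Its ALDH differences were -1.42 and 1.04. A dimmer Txnrd1 probe, detected in each group, had -0.54 and 0.67, under 2-fold at both times. Txn1, thioredoxin itself, had 5.31 on ZT12 ALDH-high, 6.14 on ZT12 ALDH-low, 6.58 on ZT0 ALDH-high and 5.15 on ZT0 ALDH-low. Srxn1, which repairs overoxidised peroxiredoxins, had 1.73 on ZT12 ALDH-high, 2.80 on ZT12 ALDH-low, 2.28 on ZT0 ALDH-high and 2.07 on ZT0 ALDH-low. Its ZT12 difference of -1.07 was past 2-fold, and its ZT0 difference of 0.21 changed sign under quantile normalization.

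The peroxiredoxins split. Prdx1, a cytosolic peroxidase, had 5.80 on ZT12 ALDH-high and 4.91 on ZT12 ALDH-low, against 3.98 on ZT0 ALDH-high and 5.92 on ZT0 ALDH-low. Prdx2, the peroxidase that abounds in red cells, had 3.88 on ZT12 ALDH-high, 3.27 on ZT12 ALDH-low, 1.60 on ZT0 ALDH-high and 4.31 on ZT0 ALDH-low. The endoplasmic reticulum form Prdx4 had 2.20 on ZT12 ALDH-high, 1.53 on ZT12 ALDH-low, 0.22 on ZT0 ALDH-high and 2.63 on ZT0 ALDH-low. All 3 were lower in ALDH-high cells at ZT0, by -1.94, -2.71 and -2.41. At ZT12 they were higher by 0.61 to 0.89, and the ZT12 signs of Prdx2 and Prdx4 changed under median scaling. That of Prdx1 did not, but almost nothing was left of its ZT12 difference under that scaling. Another probe named Prdx2, placed on the other strand of chromosome 8 and detected on the ZT12 ALDH-low and ZT0 ALDH-high arrays only, ran the opposite way, at least 2.45-fold lower in ALDH-high cells at ZT12 and at least 7.54-fold higher at ZT0. The mitochondrial Prdx3 had differences of 0.70 at ZT12, also turned by median scaling, and -1.13 at ZT0. Prdx5, found in several compartments, ran with the NRF2 group: 7.19 on ZT12 ALDH-high, 8.08 on ZT12 ALDH-low, 8.50 on ZT0 ALDH-high and 6.85 on ZT0 ALDH-low. Prdx6, the form that uses glutathione, had smaller differences of -0.67 and 0.36.

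**Figure D3:**
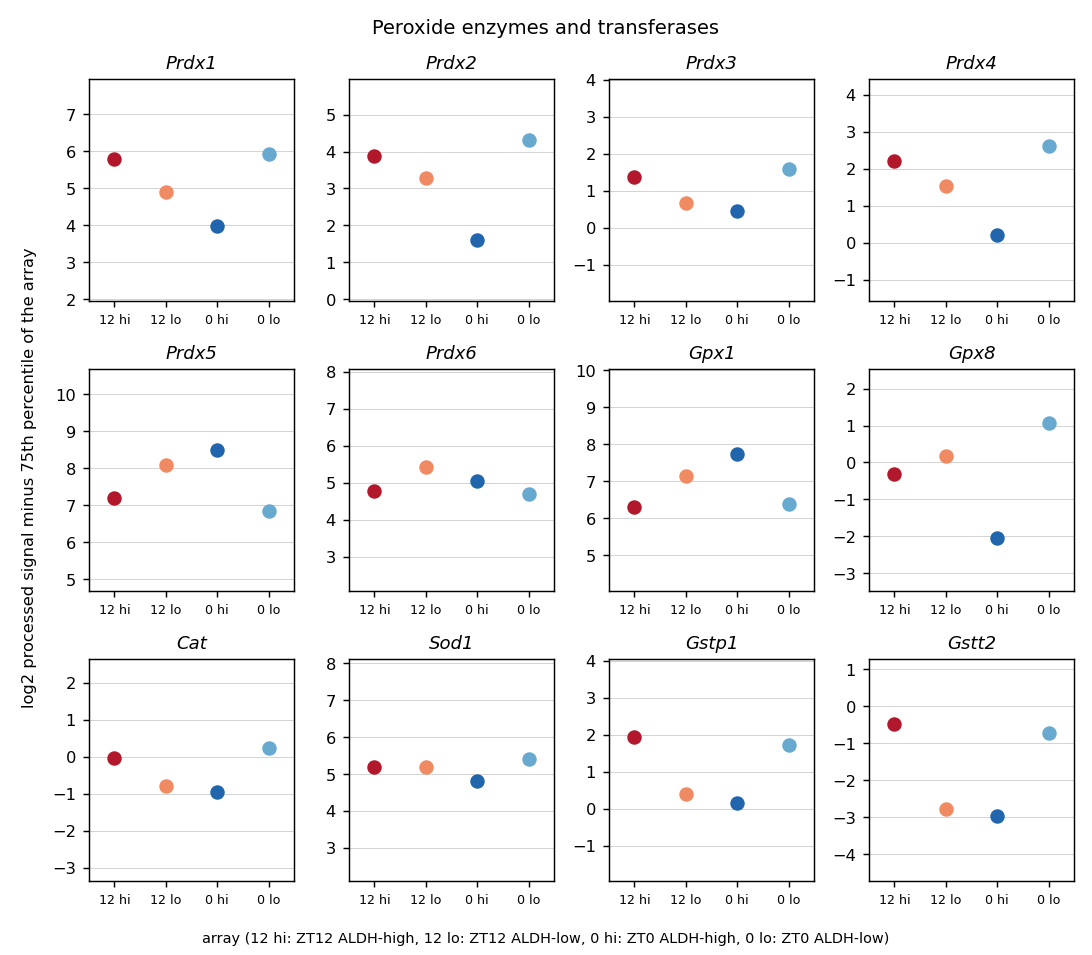
Log2 level relative to the 75th percentile of the array for 12 peroxide enzymes and transferases, 1 point per array, each panel spanning 6 log2 units. Prdx1 to Prdx4, Cat, Gstp1 and Gstt2 lie lowest on ZT0 ALDH-high, where Prdx5 and Gpx1 lie highest.

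Among the glutathione peroxidases, Gpx1, the cytosolic form, had 6.31 on ZT12 ALDH-high, 7.15 on ZT12 ALDH-low, 7.74 on ZT0 ALDH-high and 6.38 on ZT0 ALDH-low. Its ZT0 difference of 1.36 was past 2-fold and its ZT12 difference of -0.84 was not. Gpx4, which reduces lipid peroxides and guards against ferroptosis, varied little, with 4.56 on ZT12 ALDH-high, 4.67 on ZT12 ALDH-low, 4.88 on ZT0 ALDH-high and 4.71 on ZT0 ALDH-low. Gpx3, the secreted form, had differences of -0.41 and 0.57. Gpx8, an endoplasmic reticulum form, was set apart by 1 array: -0.31 on ZT12 ALDH-high, 0.17 on ZT12 ALDH-low, -2.03 on ZT0 ALDH-high and 1.07 on ZT0 ALDH-low. Its difference of -3.10 at ZT0 was the lowest of any measured member.

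Catalase, the peroxisomal enzyme encoded by Cat, had -0.03 on ZT12 ALDH-high and -0.80 on ZT12 ALDH-low, against -0.96 on ZT0 ALDH-high and 0.22 on ZT0 ALDH-low. The mitochondrial superoxide dismutase gene Sod2 was nearly level, with differences of -0.12 and 0.09. The cytosolic Sod1 had 5.20 on ZT12 ALDH-high, 5.18 on ZT12 ALDH-low, 4.80 on ZT0 ALDH-high and 5.40 on ZT0 ALDH-low. A second and dimmer Sod1 probe, without a RefSeq transcript, had differences of -1.96 at ZT12 and 2.05 at ZT0. Sod1 and Prdx2 were the exceptions among 16 members with more than 1 measured probe, of which 14 had the same signs in all probes at both times.

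Of the 17 glutathione S-transferases, 14 were measured, and none of these was past 2-fold lower at ZT12 or past 2-fold higher at ZT0. Over all features, 17.9% were lower at ZT12 and 20.5% higher at ZT0, shares that come to only a few of 14 genes. Gstt2, of the theta class, had -0.49 on ZT12 ALDH-high and -2.78 on ZT12 ALDH-low, against -2.97 on ZT0 ALDH-high and -0.73 on ZT0 ALDH-low. Its ALDH differences were 2.29 and -2.25, and the alpha class Gsta4, which acts on lipid aldehydes, had 1.67 and -2.12. The theta class Gstt4 was detected on ZT12 ALDH-high and ZT0 ALDH-low and on neither of the other arrays, so it was at least 7.25-fold higher in ALDH-high cells at ZT12 and at least 6.11-fold lower at ZT0. These bounds hold for the processed signal: with normexp and quantile normalization, the Gstt4 differences were 0.59 and -0.65. Gstp1, the pi class enzyme that is abundant in many tumours, had 1.93 on ZT12 ALDH-high, 0.41 on ZT12 ALDH-low, 0.15 on ZT0 ALDH-high and 1.72 on ZT0 ALDH-low. Its probe is shown because its accessions also name Gstp2, so the signal may hold both genes. It lies at chr19:4037306-4037365 of mm9 on the minus strand.
Gstp1: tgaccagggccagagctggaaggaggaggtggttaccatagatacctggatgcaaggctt
Gstp2, read by another probe, had 4.43 on ZT12 ALDH-high, 3.77 on ZT12 ALDH-low, 3.15 on ZT0 ALDH-high and 4.74 on ZT0 ALDH-low. The mu class was less uniform. Gstm2 had differences of -0.27 at ZT12 and -2.16 at ZT0, Gstm6 of 1.17 and -0.24, and Gstm1, Gstm3 and Gstm5 lay between -0.68 and 0.21 in both with the probes used. A dimmer Gstm5 probe, detected on all arrays but ZT0 ALDH-high, was at least 9.47-fold lower in ALDH-high cells at ZT0 and differed by 0.54 at ZT12. The brightest Gstm1 probe is placed on chromosome 5 of mm9, while RefSeq has Gstm1 on chromosome 3, so its target is uncertain. Gstm4 was not well above background on ZT12 ALDH-high and had -0.38 at ZT0. The remaining theta and zeta genes were all past 2-fold lower in ALDH-high cells at ZT0, with -2.17 for Gstt1, -1.73 for Gstt3 and -1.33 for Gstz1.

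Counted together, 5 of the 42 members (11.9%) were at least 2-fold higher in ALDH-high than in ALDH-low cells at ZT12, where 32.2% of all features were, and 10 (23.8%) were at least 2-fold lower, against 17.9%. These counts use signals as measured, also those not well above background. The 10 lower members include Nqo1, whose bound at ZT12 is under 2-fold, and are 9 without it. At ZT0, 13 members (31.0%) were higher, against 20.5% of all features, and 15 (35.7%) lower, against 31.5%. Between times, 14 members (33.3%) were higher and 12 (28.6%) lower at ZT12 than at ZT0 in ALDH-high cells, against 32.5% and 20.8% of all features. In ALDH-low cells, 9 (21.4%) were higher and 9 lower at ZT12, against 17.5% and 32.7%. The shares lower in ALDH-high cells at ZT0, and higher at ZT12 than at ZT0 in either arm, were thus close to those of all features. So was the share lower in ALDH-high cells at ZT12 when Nqo1 is left out. The median difference of the members was -0.07 at ZT12 and -0.35 at ZT0, beside 0.30 and -0.32 over all features, and 0.04 in ALDH-high and -0.19 in ALDH-low cells between times, beside 0.33 and -0.42.

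Since the median of all features moved with the scaling, from 0.30 to -0.57 at ZT12 and from -0.32 to 0.17 at ZT0 when arrays were scaled by their median, the counts were also taken relative to it. At ZT12, 4 members (9.52%) then lay at least 2-fold above the median of all features and 13 (31.0%) below it, against 27.2% and 24.4% of all features. At ZT0, 13 lay above and 13 below, against 26.5% and 23.7%. In ALDH-high cells between times, 11 (26.2%) lay above and 13 below, against 24.4% and 26.8%, and in ALDH-low cells 15 (35.7%) above and 3 (7.14%) below, against 25.3% and 24.4%. No member difference at least 2-fold in size changed sign under the 4 other scalings, namely the median, quantile normalization, normexp with quantile normalization and the authors' table. Many did not stay past 2-fold: under at least 1 of the 4, 8 of the 15 at ZT12 and 9 of the 28 at ZT0 came to less. So did 11 of the 26 between times in ALDH-high cells and 10 of the 18 in ALDH-low cells. Gsta4 and Gstm6 at ZT12 came to less under all 4, with 0.34 to 0.91 for Gsta4 and 0.08 to 0.30 for Gstm6. Txnrd1 at ZT0 had 0.43 to 0.46 under all but the median.

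At both times alike, 0 members were at least 2-fold different in one direction, and 0.523% of all features were. Instead, 9 members (21.4%) were lower in ALDH-high cells at ZT12 and higher at ZT0, against 15.0% of all features, or 8 without Nqo1 and its ZT12 bound under 2-fold: Nfe2l2, Nqo1, Slc7a11, Gclm, Gsr, Ggt1, Txnrd1, G6pdx and Pgd. For Txnrd1 this rests on the probe used, since its dimmer probe was under 2-fold at both times. The opposite turn, higher at ZT12 and lower at ZT0, was seen in Gsta4, Gstp1, Gstt2 and Gstt4, 4 members (9.52%) against 20.4% of all features. Put by array, 17 members (40.5%) were higher on both position 1_2 arrays than on either 1_1 array, against 32.4% of all features, and 18 (42.9%) were higher on both 1_1 arrays, against 47.9%. Within position 1_1, ZT12 ALDH-high differed from ZT0 ALDH-low by 2-fold in Gstm6, which was higher, and Gpx8, which was lower, or 1 member (2.38%) each against 3.72% and 3.06% of all features. Within position 1_2, ZT0 ALDH-high exceeded ZT12 ALDH-low in G6pdx alone, against 14.4% of all features. It lay below ZT12 ALDH-low in 5 members (11.9%), Prdx2, Prdx4, Gpx8, Gstm2 and Gstt1, against 6.45%.

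**Figure D4:**
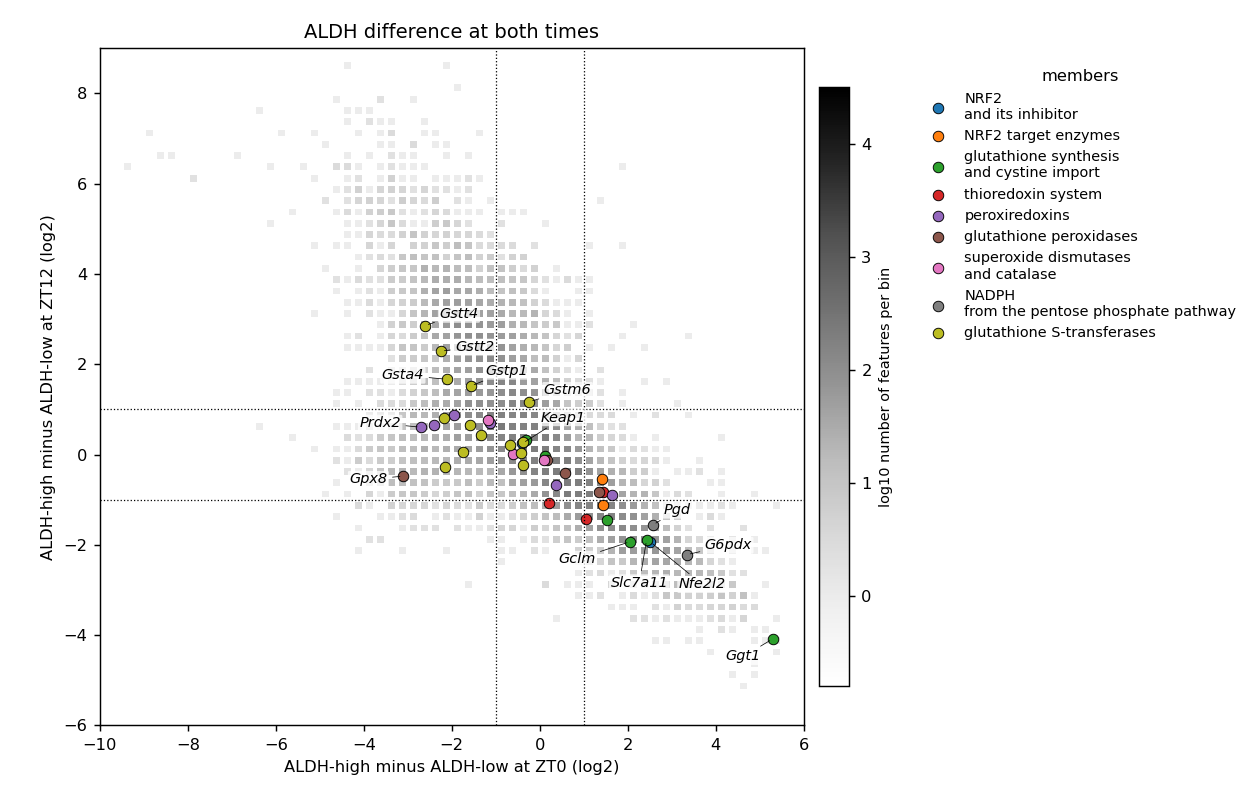
Log2 difference between ALDH-high and ALDH-low cells at ZT12 (vertical) against ZT0 (horizontal) for the 42 members, coloured by role, over all 23520 features binned in grey, with dotted lines at 2-fold. The glutathione, thioredoxin and NADPH genes past 2-fold at both times lie at the lower right and 4 transferases at the upper left, along the slope that all features follow.

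In the additive limma fit over the 4 arrays, 0 features were called for ALDH and 0 for time, or 0.0% of 23520 in each, at an adjusted p threshold of 0.05 (Benjamini-Hochberg over all features). At an unadjusted p under 0.05 there were 7 features for ALDH and 2 for time, with 0 members in either. With array position in place of time, 0 features were called for ALDH, with 1915 features and 3 members at an unadjusted p under 0.05 and a lowest adjusted p of 0.608. Every gene shared a standard error of 1.54 log2 units, and 7.31 units would have been needed for a first call, since the fit takes a difference that turns round between times as error. None of the single differences above has a test.

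Markers of other cells moved with both patterns. Of 10 neutrophil markers, 5 were at least 2-fold lower in ALDH-high cells at ZT12 and 6 at least 2-fold higher at ZT0. Slc7a11, Gclm, Gsr, Ggt1 and both pentose phosphate genes were so at both times, while Gclc and Gss were not. Other neutrophil markers went the opposite way: Csf3r and S100a9 were higher in ALDH-high cells at ZT12, by 1.70 and 1.27, and Mpo was lower at ZT0, by -1.77. The mean log2 level of the 10 markers was 5.58 on ZT12 ALDH-high and 6.72 on ZT12 ALDH-low, against 7.50 on ZT0 ALDH-high and 5.37 on ZT0 ALDH-low. Each of the 10 was detected in each group. The chemokine receptor gene Cxcr2 had 2.92 on ZT12 ALDH-high, 6.11 on ZT12 ALDH-low, 6.84 on ZT0 ALDH-high and 2.14 on ZT0 ALDH-low, while the granule gene S100a8 lay between 8.60 and 9.22 on all 4. Most red cell, lymphocyte and macrophage markers ran the other way, with Prdx1 to Prdx4, Cat and most transferases. Of 7 measured red cell markers, 6 were higher in ALDH-high cells at ZT12 and 6 lower at ZT0, and their mean level was 2.46 on ZT12 ALDH-high, -2.76 on ZT12 ALDH-low, -2.91 on ZT0 ALDH-high and 3.85 on ZT0 ALDH-low. Alas2 and Slc4a1, markers of red cell precursors and of red cells, were detected on ZT12 ALDH-high and ZT0 ALDH-low alone.

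All 10 T and NK cell markers were higher in ALDH-high cells at ZT12 and 9 lower at ZT0, and 6 of 7 measured B cell markers did both. The mean T and NK marker level was 2.31 on ZT12 ALDH-high, -2.47 on ZT12 ALDH-low, -0.80 on ZT0 ALDH-high and 1.80 on ZT0 ALDH-low. Of 9 macrophage markers, 5 were higher at ZT12 and 6 lower at ZT0. Csf1r and Cd68 had the opposite signs at both times, under 2-fold, with -0.27 and 0.61 for Csf1r and -0.08 and 0.36 for Cd68. Epithelial markers also ran with Prdx1 to Prdx4. All 10 were at least 2-fold lower in ALDH-high cells at ZT0, with a median of -3.41. At ZT12 the median was 0.61, with 1 of 10 past 2-fold higher and 0 lower. Scaling by the median, which shifts all features of a contrast alike, turns most of these ZT12 differences negative. The mean level of the 10 markers was 0.67 on ZT12 ALDH-high, 0.20 on ZT12 ALDH-low, -1.67 on ZT0 ALDH-high and 1.52 on ZT0 ALDH-low. Gpx8, Prdx1 to Prdx4, Cat, Sod1 and most measured transferases, Gstm2 among them, were likewise lowest on ZT0 ALDH-high. Keap1 and Gss were too, by less, so this trait is not particular to a few members. The part of these cells in the member differences was not tested.

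**Figure D5:**
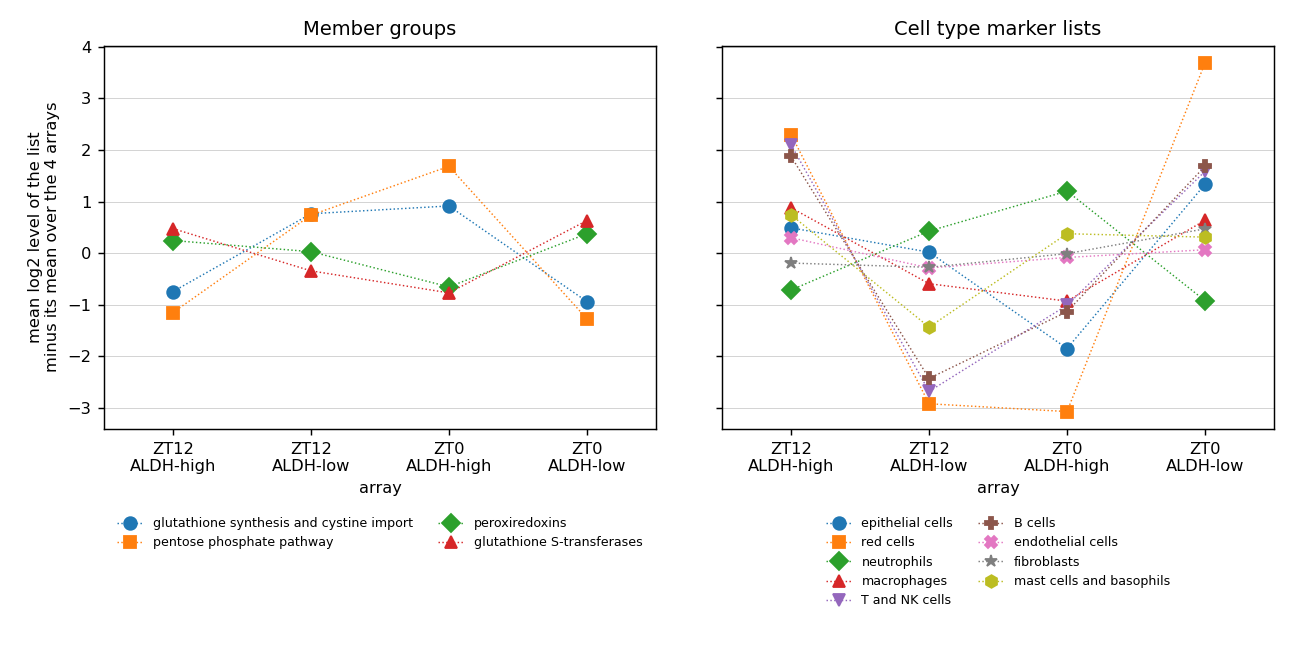
Mean log2 level of 4 member groups (left) and of 9 cell type marker lists (right) on each array, minus the mean of that list over the 4 arrays. Neutrophil markers are high on ZT12 ALDH-low and ZT0 ALDH-high, with the pentose phosphate genes and the group labelled glutathione synthesis and cystine import. That group also holds Gsr and Ggt1, and its members Gclc and Gss differ little between arrays. Red cell and lymphocyte markers are low on ZT12 ALDH-low and ZT0 ALDH-high.

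Other genes of the pathway were followed as lists. Of 15 measured partners and regulators of NRF2, 7 were at least 2-fold lower and 2 higher in ALDH-high cells at ZT12, and 7 higher and 2 lower at ZT0, with medians of -0.83 and 0.98. Over all features, 17.9% were lower and 32.2% higher at ZT12, and 20.5% higher and 31.5% lower at ZT0, with medians of 0.30 and -0.32. Nfe2, a relative of NRF2 known from blood cells, had 1.91 on ZT12 ALDH-high, 4.82 on ZT12 ALDH-low, 5.59 on ZT0 ALDH-high and 1.68 on ZT0 ALDH-low. The small MAF gene Mafk had ALDH differences of -1.80 and 2.66, and Bach1, a repressor that competes at the same elements, had -2.12 and 2.17. Rbx1, of the ligase that KEAP1 serves, had -0.16 and 0.33.

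Among 24 other NRF2 targets, 7 were lower and 4 higher at ZT12, and 7 higher and 6 lower at ZT0, with medians of -0.12 and 0.15. The ZT0 counts are near the shares of all features just given. Osgin1, an oxidative stress growth inhibitor, had differences of -2.09 and 3.14. Gpx2, the epithelial glutathione peroxidase, had 2.88 and -2.40, and Ephx1, an epoxide hydrolase, 2.33 and -2.22, so the targets did not share one direction. Of 21 other glutathione enzymes, 6 were lower and 3 higher at ZT12, and 7 were higher and 7 lower at ZT0, the last near the 31.5% of all features. Glrx, which removes glutathione from proteins, had -2.19 and 3.15, and the microsomal transferase Mgst1 -2.22 and 2.98, while the prostaglandin D synthase Hpgds had 2.20 and -2.81.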

How the data were processed

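RNA of 4 sorted samples was measured, 1 one-colour array each, labelled with Cy3. Per the file headers, the deposited processed signals are linear intensity values from which Agilent Feature Extraction 10.7.1.1 took the background within each array, with no normalization between arrays. The submitters' processing notes name version 9.5.1.1. The authors' deposited series table holds intensity values put on a common scale, each column with a median of 28.3, by a method not given in the sources used here. Probe positions are in mm9, per the file headers. Exon and UTR positions were not analysed here.

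Control and outlier spots were left out, spots of a probe were averaged, and log2 processed signal minus the array's 75th percentile was used. The brightest probe stood for a gene if well above background on at least 2 arrays. Where 1 side of a contrast was not well above background, the fold is a bound: the bright value is set against the dim probe's value or the lowest well-measured signal of that array, whichever is higher. The median SD of replicate spots was 0.0374 to 0.0456 log2 units on 300 probes, 55.8% to 60.6% of spots were well above background and 0 were saturated. The p-values of limma 3.58.1 (R 4.3.3; lmFit and eBayes, ALDH arm and time, two-sided) measure the spread between these arrays alone; the fit was tested on simulated data. Tables and figures were made in Python 3.11.15 (numpy 2.4.6, pandas 2.3.3; figures, matplotlib 3.10.9). All measured members may be named, and from each pathway list the 3 genes with the largest and the 3 with the smallest mean absolute ALDH difference. Members and lists were chosen with earlier results of these data known. Alternatives were the scaling, background correction, filter, probe rule, authors' table, array position in place of time and leaving out each array; contrasts within array position and counts relative to the median of all features were chosen after seeing the data.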

Additional observations from a re-analysis of the deposited data

Results flagged for a closer look

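For 13 members, the ALDH difference in signals as measured was at least 2-fold at both times and turned round between them, so that the single ZT12 pair of arrays moved one way and the single ZT0 pair the other. Of all features, 15.0% turned one way (lower at ZT12, higher at ZT0; 9 members) and 20.4% the other (4 members). The size is the ALDH difference at ZT12 minus that at ZT0, in log2 units, and with 1 array per group this difference was not tested. It was negative for Ggt1 at -9.38, G6pdx at -5.56, Nfe2l2 at -4.43, Slc7a11 at -4.32, Pgd at -4.13 and Gclm at -3.99. It was of the same sign for Gsr at -2.99 and Txnrd1 at -2.46, where the dimmer Txnrd1 probe was under 2-fold at both times. Nqo1 came to -2.55, but its ZT12 ALDH-high signal was not well above background and its ZT12 difference is bounded at 1.25-fold only, so this size has no rank among the others. It was positive for the transferases Gstt4 at 5.47, Gstt2 at 4.54, Gsta4 at 3.79 and Gstp1 at 3.08. Gstt4 was not well above background on ZT12 ALDH-low and ZT0 ALDH-high. With normexp and quantile normalization, Gstt4, Gsta4, Gsr, Txnrd1 and Nqo1 were under 2-fold at both times. Gsr then had -0.97 at ZT12 and 0.89 at ZT0, and Gsta4 had 0.34 and -0.67. Under the same setting Gstt2 was under 2-fold at ZT0 alone, at -0.99. The turn between times is the same contrast as array position 1_1 against 1_2, so they cannot be told apart.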

How the results depend on the processing

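The number of features called for ALDH stayed at 0 under every alternative run, which were 7 settings of scaling, filter, probe and table, array position in place of time, the slide as a block, and each array left out. For time it was 0 to 1 when each array was left out, with the 1 call without the ZT12 ALDH-high array, and 0 otherwise. With 1 array left out, the fit held ALDH arm alone or time alone, and 1 side of the contrast was a single array. Counts from those fits differ from the counts with all arrays in the model as well, so the effect of leaving out an array cannot be read from them. Scaling by the median changed the most member counts past 2-fold: at ZT12, 2 higher and 19 lower (20.2% and 38.8% of all features); in ALDH-low cells between times, 17 higher and 3 lower (34.4% and 19.0%); and over both times, 14 lower at ZT12 and higher at ZT0, 2 the opposite and 2 in the same direction (26.9%, 11.1% and 2.22%). This scaling shifts all features of a contrast alike. It also turned the member median to 0.13 at ZT0, -0.50 in ALDH-high cells and 0.63 in ALDH-low cells between times, beside all-feature medians of 0.17, -0.21 and 0.41. With normexp and quantile normalization, 6 members were higher at ZT12 in ALDH-high cells, against 16.1% of all features. Relative to the median of all features, 15 were higher and 3 lower in ALDH-low cells. Of 1164 recomputed single member differences, 1155 stayed within 1.54 log2 units (the standard error of the limma fit, a wide margin), 8 moved further and 1 that was past 2-fold as reported turned round, that of Prdx2 between times in ALDH-low cells, at 0.062 with the mean of its probes. The sign changed in 82 of the 1164 in all, and apart from that of Prdx2 these were under 2-fold as reported. Each slide holds 1 array of each ALDH group, so the fit with the slide as a block is the fit with time, and both gave 0 calls for ALDH. Signals near background limit Nqo1, Gstm4 and Gstt4.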

Other observations

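A list of genes tied to superoxide, the source of much cellular peroxide, was not among the members. It also holds Mpo, a peroxidase that does not make superoxide and that is counted among the neutrophil markers above. Of the 9 measured genes of the list, 4 were at least 2-fold lower and 1 higher in ALDH-high cells at ZT12. At ZT0, 7 were higher and 2 lower, and the lower ones include Mpo at -1.77. Of all features, 17.9% were lower and 32.2% higher at ZT12, and 20.5% higher and 31.5% lower at ZT0. Xdh, xanthine dehydrogenase, had ALDH differences of -2.52 and 3.08, and Nox4, an oxidase outside phagocytes, had 3.24 and -1.20. Cybb, the membrane subunit of the phagocyte oxidase, had -0.47 at ZT12 and 2.02 at ZT0.

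Of 18 other thioredoxin and peroxide genes, 5 were lower and 3 higher in ALDH-high cells at ZT12, and 5 were higher and 5 lower at ZT0, near the shares of all features at ZT0. Txnip, which binds and holds back thioredoxin, had 4.80 on ZT12 ALDH-high, 6.50 on ZT12 ALDH-low, 7.54 on ZT0 ALDH-high and 4.26 on ZT0 ALDH-low. Msra, which repairs oxidised methionine, had differences of -1.99 and 3.21, and the stress gene Sesn2 -1.65 and 2.81. These differences have 1 array on each side and no test.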
